A study of Mus musculus with 12 samples.

Results

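The replication-dependent histone genes are the clustered genes for the canonical histones H1, H2A, H2B, H3 and H4, and they were taken as every row of the table whose gene name starts with Hist1h, Hist2h, Hist3h or Hist4h. This name rule found 66 of 31057 genes: 6 for H1, 16 for H2A, 19 for H2B, 12 for H3 and 13 for H4. Of these, 54 carry the name of cluster 1 on chromosome 13, 8 that of cluster 2 on chromosome 3, 3 that of cluster 3 on chromosome 11 and 1 that of cluster 4 on chromosome 6. RNA of the tibialis anterior, a leg muscle, came from C57BL/6 mice aged 7 weeks in 4 groups of 3 libraries. The dKO denervated and dKO innervated muscles came from mice labelled H2A-Z.1-/-, H2A-Z.2-/- and HSA Cre+, that is, as lacking both genes that encode the variant histone H2A.Z. The WT denervated and WT innervated muscles came from mice that carry both genes as flox/flox alleles, with HSA Cre labelled WT. HSA is the promoter of human skeletal actin, active in muscle fibres, so the other cells of a dKO muscle keep both H2A.Z genes. Denervated muscles came from the left leg, 48 h after the sciatic nerve was cut, and innervated muscles from the unoperated other leg, so that loss of the nerve, surgery and body side cannot be told apart. In whole muscle, fewer cells of a type and less RNA per cell cannot be told apart either.

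Canonical histones package newly replicated DNA, and their genes are transcribed mostly in S phase, under the coactivator NPAT. Their mRNAs carry no poly(A) tail: they end shortly after a stem-loop that is bound by the protein SLBP and cut with the help of the U7 snRNP. The same stem-loop serves in the rapid decay of these mRNAs when replication stops. Some of the genes can also give polyadenylated RNAs that read past the stem-loop, which is known from cells that have left the cell cycle. Muscle fibres are such cells, and they rely on replacement variants such as H3.3 for new histones. Because ribosomal RNA was removed in place of selecting poly(A), both forms of RNA could be counted here.

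The stem-loop is shown first, since it is what sets these genes apart from other mRNA genes. The conserved letters of the histone stem-loop, 16 bases of the coding strand with 5 positions free to hold any base, were found in the longest annotated transcript of 39 of the 66 members. Of all 55450 genes of GENCODE M21 on GRCm38, the members included, 89 held these letters in any of their transcripts, which is 0.161%. An annotated transcript that stops before the stem-loop gives no match. Other members had no match in a long transcript: Hist2h2be (2620 bases), Hist1h2br (2197), Hist1h2bq (2015), Hist2h2bb (1511) and Hist1h2bc (1156) are among them. Why these had none was not tested. The ID counted as Hist2h2bb is named Gm42743 in M21, where it overlaps a separate gene Hist2h2bb on the same strand. The 1511 bases are therefore those of a Gm42743 transcript. Only the longest transcript and these fixed letters were searched, so the 27 others are not shown to lack a stem-loop. The core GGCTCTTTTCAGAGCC was found in 3 H1, 6 H2A, 7 H2B and 5 H3 members, and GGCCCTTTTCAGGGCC in 7 H4 members. The 11 H4 members with a match shared no core with a member of another class. The sequences below are those of members to which the results return, with the 16 bases of the stem-loop in capitals and 5 bases on each side in lower case:
Hist1h1c: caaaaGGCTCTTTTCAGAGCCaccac
Hist2h2ac: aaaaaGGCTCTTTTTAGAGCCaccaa
Hist1h2be: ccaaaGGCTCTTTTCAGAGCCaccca
Hist1h3e: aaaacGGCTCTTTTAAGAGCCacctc
Hist1h4c: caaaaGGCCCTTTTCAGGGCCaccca
Hist1h4d: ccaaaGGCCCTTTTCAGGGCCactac
Hist1h4b: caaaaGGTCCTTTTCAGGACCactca
In the annotation, the transcript goes on for 840 bases past the stem-loop of Hist1h1c, for 1861 past that of Hist1h2be, for 770 past that of Hist1h4d and for 57 past that of Hist2h2ac. Counts per gene cannot say which of the possible RNA ends was present.

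Promoters from 250 bases before to 50 bases after the start were found in RefSeq (GRCm38.p6) for 58 members, and motifs were searched in them on both strands. The octamer ATTTGCAT, known from H2B promoters as a site of OCT1, was found in 7 of 14 H2A and 6 of 16 H2B promoters and in none of the 28 promoters of H1, H3 and H4, against 1.71% of 26967 promoters of other genes. Windows of neighbouring genes can overlap, and a site there counts for both genes. This holds for the octamer of Hist1h2aa and Hist1h2ba, of Hist1h2ae and Hist1h2bg, and of Hist1h2ah and Hist1h2bk. The H1 box AAACACA was found in 5 of 6 H1 promoters, against 7.12% of the promoters of other genes. It was also found in 2 of 14 H2A and 2 of 16 H2B promoters, and in none of H3 and H4. CCAAT was found in every promoter of H1, H2A, H2B and H3 but in 3 of 12 of H4, against 37.82%, and TATAAA in 34 of the 58, against 14.07%. The first promoter printed is that of Hist1h1b, which rose after denervation in WT muscle, at chr13:21780576-21780875 on the minus strand, with its H1 box in capitals. The second is that of Hist2h2ac, at chr3:96220831-96221130 on the minus strand, with the octamer, here read from the other strand, in capitals. This window reaches the annotated start of Hist2h2be at position 96221119, a gene read in the opposite direction that differed between genotypes, and the octamer lies between both starts:
Hist1h1b: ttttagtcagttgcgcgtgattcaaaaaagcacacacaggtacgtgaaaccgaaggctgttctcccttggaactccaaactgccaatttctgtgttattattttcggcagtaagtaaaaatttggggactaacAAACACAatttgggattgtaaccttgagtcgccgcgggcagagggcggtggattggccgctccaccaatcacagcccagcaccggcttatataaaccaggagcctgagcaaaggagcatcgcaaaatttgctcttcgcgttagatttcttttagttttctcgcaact
Hist2h2ac: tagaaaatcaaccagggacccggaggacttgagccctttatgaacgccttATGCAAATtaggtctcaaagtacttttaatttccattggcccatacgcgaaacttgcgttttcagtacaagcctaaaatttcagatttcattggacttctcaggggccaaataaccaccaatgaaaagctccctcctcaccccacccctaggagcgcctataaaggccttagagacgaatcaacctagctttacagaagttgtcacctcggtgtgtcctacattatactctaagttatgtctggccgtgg
A motif match is a description of these letters, not of a bound factor.

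Library totals ran between 55668606 and 87753152 counts, and CPM values, the counts relative to library size, are scaled by TMM factors. Of the deleted genes, H2afv (H2A-Z.2) had 5.4, 4.81 and 4.78 CPM in dKO denervated and 5.06, 5.89 and 6.06 CPM in dKO innervated muscle, against 21.6, 21.6 and 18.9 CPM in WT denervated and 24.0, 23.9 and 18.5 CPM in WT innervated muscle. H2afz (H2A-Z.1) had 7.84, 5.83 and 6.01 CPM in dKO denervated and 8.5, 6.74 and 9.93 CPM in dKO innervated muscle, against 11.2, 7.54 and 10.4 CPM in WT denervated and 13.9, 10.9 and 15.6 CPM in WT innervated muscle. H2afv was lower in dKO in both states, by a log2 fold change of -2.05 ± 0.12 in denervated and -1.96 ± 0.12 in innervated muscle (edgeR adjusted p = 5.23e-06 and 8.89e-06). H2afz passed in neither, with -0.57 ± 0.19 in denervated and -0.69 ± 0.19 in innervated muscle (edgeR adjusted p = 0.287 and 0.175), and its highest dKO denervated library lay above its lowest WT denervated one. Summed CPM of 6 markers of muscle fibres was 178000 to 195000 in dKO denervated, 253000 to 254000 in dKO innervated, 182000 to 188000 in WT denervated and 239000 to 301000 in WT innervated muscle.

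Among the 12 libraries 2 stood apart in the histone genes: replicate 1 of dKO innervated and replicate 2 of WT denervated. Against the mean of the other libraries of its group, the dKO innervated library had a median log2 ratio of -0.91 over the 46 members with enough counts for a test, with 46 of 46 below 0, and the WT denervated library one of -1.23, with 44 of 46 below 0. Members with a deposited gene length of at most 0.7 kb had median log2 ratios of -1.08 in the dKO innervated library and -1.65 in the WT denervated library (28 members), and longer members -0.54 in the dKO innervated and -0.27 in the WT denervated library (18 members). Over the 46 members the Spearman correlation of the log2 ratio with length was 0.57 in the dKO innervated library and 0.7 in the WT denervated library, and with GC content -0.15 in the dKO innervated and -0.31 in the WT denervated library, given as a description of genes that share 1 library. GC content was that of the longest M21 transcript, which for some short members is far longer than the deposited length. Hist4h4 has 2863 bases there against 0.312 kb, and Hist1h4c 820 bases against 0.395 kb. The correlations with length and with GC content therefore do not rest on the same sequences and cannot be ranked against each other. The 21 tested members with a mean of at least 1 CPM, of any length, were less low. Their medians were -0.73 in the dKO innervated library and -0.65 in the WT denervated library. Short genes that are no histone genes, cut at the same level, were nearer to their groups. With at least 1 CPM on average and at most 0.7 kb, 1321 such genes had a median log2 ratio of -0.05 in the dKO innervated library and of -0.03 in the WT denervated library. Their Spearman correlation with length was 0.11 in the dKO innervated and 0.09 in the WT denervated library. Both libraries were also low in GC-rich genes that are no histone genes: 461 genes with a GC content of at least 60% had a median log2 ratio of -0.42 in the dKO innervated library and of -0.54 in the WT denervated library. For the 61 other genes that were both short and GC-rich by these limits, the medians were -0.40 in the dKO innervated and -0.54 in the WT denervated library. The part of GC content or RNA quality in these shortfalls was not tested. Results that rest on these 2 libraries are given with and without them.

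**Figure D1:**
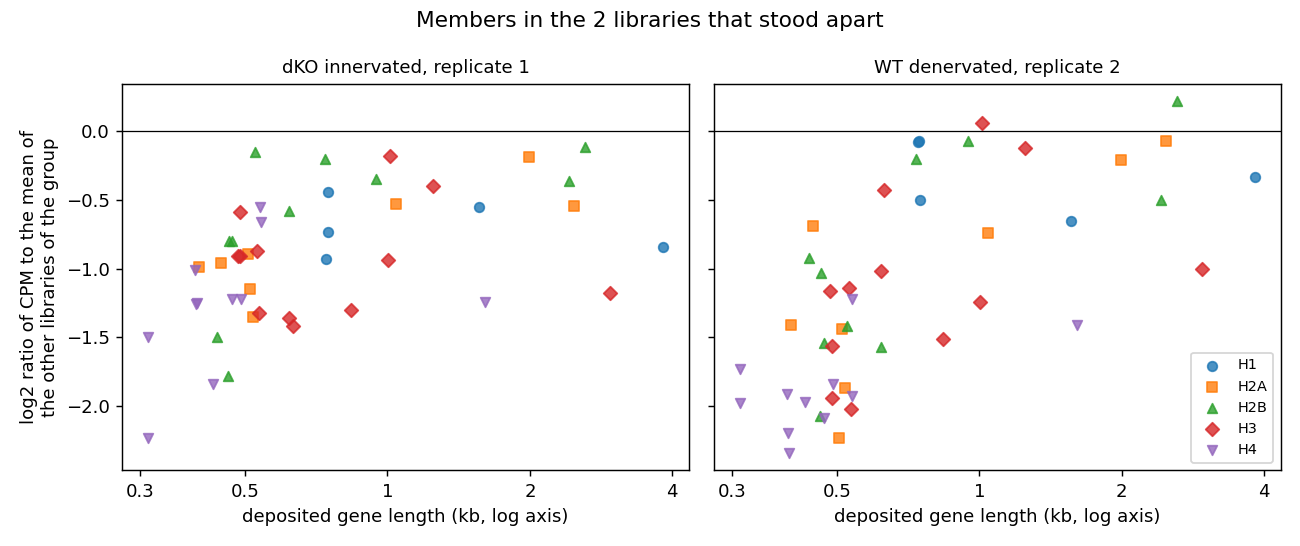
Log2 ratio of the CPM of each of 46 members in 1 library to the mean of the other libraries of its group (y axis) against the deposited gene length in kb (log x axis), for replicate 1 of dKO innervated (left) and replicate 2 of WT denervated (right), with symbols for the histone classes. The short members, among them nearly all H4 genes, lie lowest, with medians of -1.08 and -1.65 for members of at most 0.7 kb.

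Of the RNA counted for histone genes, 1 gene held more than all others together. Hist1h1c, which encodes the linker histone H1.2, held 53.9% of the CPM of all 66 members and 85.0% of that of H1. Summed over all members, CPM averaged 272 ± 46.8 in dKO denervated, 235 ± 57.5 in dKO innervated, 270 ± 75.4 in WT denervated and 266 ± 21.4 in WT innervated muscle (SD, n = 3 each). The H1 sum was 175 ± 27.9 CPM in dKO denervated, 147 ± 32.8 in dKO innervated, 174 ± 41.2 in WT denervated and 165 ± 18.6 in WT innervated muscle. For H2A, H2B and H3 they lay between 7.19 and 8.01, between 32.8 and 37.3 and between 7.95 and 9.97 CPM over the 4 groups. The H4 sums were 36.2, 56.9 and 33.4 CPM in dKO denervated, 21.2, 54.1 and 44.6 CPM in dKO innervated, 62.3, 13.7 and 48.2 CPM in WT denervated and 52.3, 49.1 and 43.6 CPM in WT innervated muscle. The lowest H4 sums were those of the 2 libraries that stood apart, and the groups overlapped in every class.

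**Figure D2:**
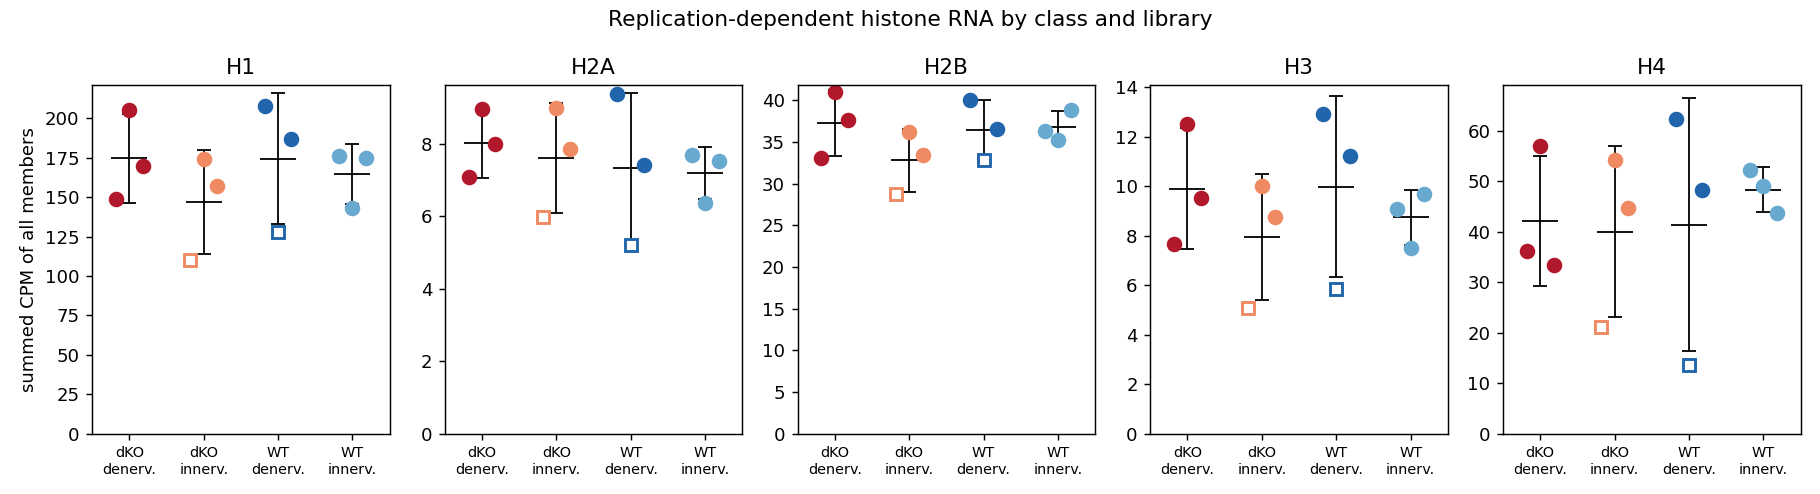
Summed CPM of all members of a histone class (y axis, from 0, with its own scale in each panel) in each library of the 4 groups, with the mean and SD of 3 libraries in black. Open squares mark replicate 1 of dKO innervated and replicate 2 of WT denervated, the lowest of their groups in all 5 panels, and the groups overlap in each panel.

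Levels of different genes can be compared only per length, and the deposited normalized signal per kb was used for that, with lengths as deposited. Hist1h1c led with 6330 ± 1220 per kb (SD over 12 libraries), and its lowest library, at 4220, was above the highest of any other member, 3210. Next came Hist1h2bc with 2120 ± 219, Hist1h4c with 1960 ± 738, Hist1h4d with 1740 ± 745, Hist1h1e with 1710 ± 306 and Hist1h4h with 1390 ± 465 per kb, whose ranges overlapped. Hist1h2bc alone held 61.8% of the CPM of H2B, and Hist3h2a of cluster 3 held 54.3% of that of H2A. H3 and H4 were spread over more genes: the leading member held 18.4% of the CPM of H3 (Hist1h3e) and 25.6% of that of H4 (Hist1h4c). The deposited lengths of Hist1h4c (0.395 kb), Hist1h4d (0.393 kb), Hist1h1e (0.748 kb) and Hist1h2bc (0.736 kb) are shorter than their longest M21 transcripts of 820, 1138, 1930 and 1156 bases, so their place in this order depends on which RNA end is taken.

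Of the 66 members, 20 had too few counts for a test. They are 1 of H1 (Hist1h1t), 8 of H2A, 9 of H2B and 2 of H4 (Hist1h4m and Hist1h4n), with at most 14 counts in any library and 0.263% of all histone counts. The highest of them was the pseudogene Hist3h2bb-ps, at 3 to 14 counts per library. Hist1h1t, Hist1h2aa and Hist1h2ba, known from the male germ line, had at most 5, 1 and 8 counts. Among the 46 tested members, 21 had a mean of at least 1 CPM. Sequence limits how well some can be told apart: 16 of the 46 share at least 50% of their 50-base words with another annotated gene, 12 lie across a gene of the opposite strand and 6 across one of their own strand, with the strand setting of the counting not given in the sources used here. Hist3h2a overlaps Trim17 on the same strand in this way, and Hist2h2ac overlaps Gm44492 on the other.

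In response to denervation, few members passed the test in either genotype. Calls are from edgeR's quasi-likelihood test at an adjusted p of 0.05 over 17201 genes. In dKO muscle none of the 46 members passed, where 42% of all tested genes did (21.9% rose and 20.2% fell). At an unadjusted p under 0.05 there were 4 higher and 1 lower, against 49% of all tested genes in either direction, and DESeq2 called 1 higher and 0 lower. Of these 17201 genes DESeq2 called 7223. In WT muscle 3 members rose and 1 fell, where 44% of all tested genes passed (23.1% rose and 21% fell), and at an unadjusted p under 0.05 there were 4 higher and 1 lower, against 50.6% of all tested genes in either direction. The denervated and innervated libraries did not overlap for 5 members that were higher and 1 that was lower in dKO muscle, against 26.6% and 26% of all tested genes, and for 3 higher and 3 lower in WT muscle, against 26.4% and 25.1%. The median log2 fold change was 0.30 in dKO and 0.12 in WT muscle, against -0.03 in dKO and -0.003 in WT muscle over all tested genes. Legs of the same replicate number deviated together, and with the replicate number as a block the counts were 5 higher and 1 lower in dKO muscle and 7 higher and 2 lower in WT muscle. With the block, 8186 of all 17201 tested genes passed in dKO and 8498 in WT muscle. The 2 libraries that stood apart sit on opposite sides of these comparisons. Both were noted for low values of the members themselves. Leaving them out therefore raises most WT changes and lowers the dKO changes of the members by that choice. Without both, 0 rose and 1 fell in dKO muscle and 11 rose and 0 fell in WT muscle, and the median log2 fold change of the 48 members then tested was 0.06 in dKO and 0.43 in WT muscle. Of the 17184 genes tested both then and in the fit of all libraries, 7042 passed in dKO and 7247 in WT muscle. Single libraries moved the counts as well. Without WT innervated replicate 1 none rose or fell in WT muscle, without WT denervated replicate 2 there were 9 that rose and none that fell, and without WT denervated replicate 3 there was 1 that rose and none that fell. Without WT innervated replicate 3 there were 3 that rose and none that fell. In dKO muscle 3 rose without WT denervated replicate 2, 2 without dKO innervated replicate 2 and 2 without dKO denervated replicate 1. Among all genes, 6795, 7062, 6920 and 6521 passed in these WT fits and 7475, 6460 and 6414 in these dKO fits, in the order given.

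**Figure D3:**
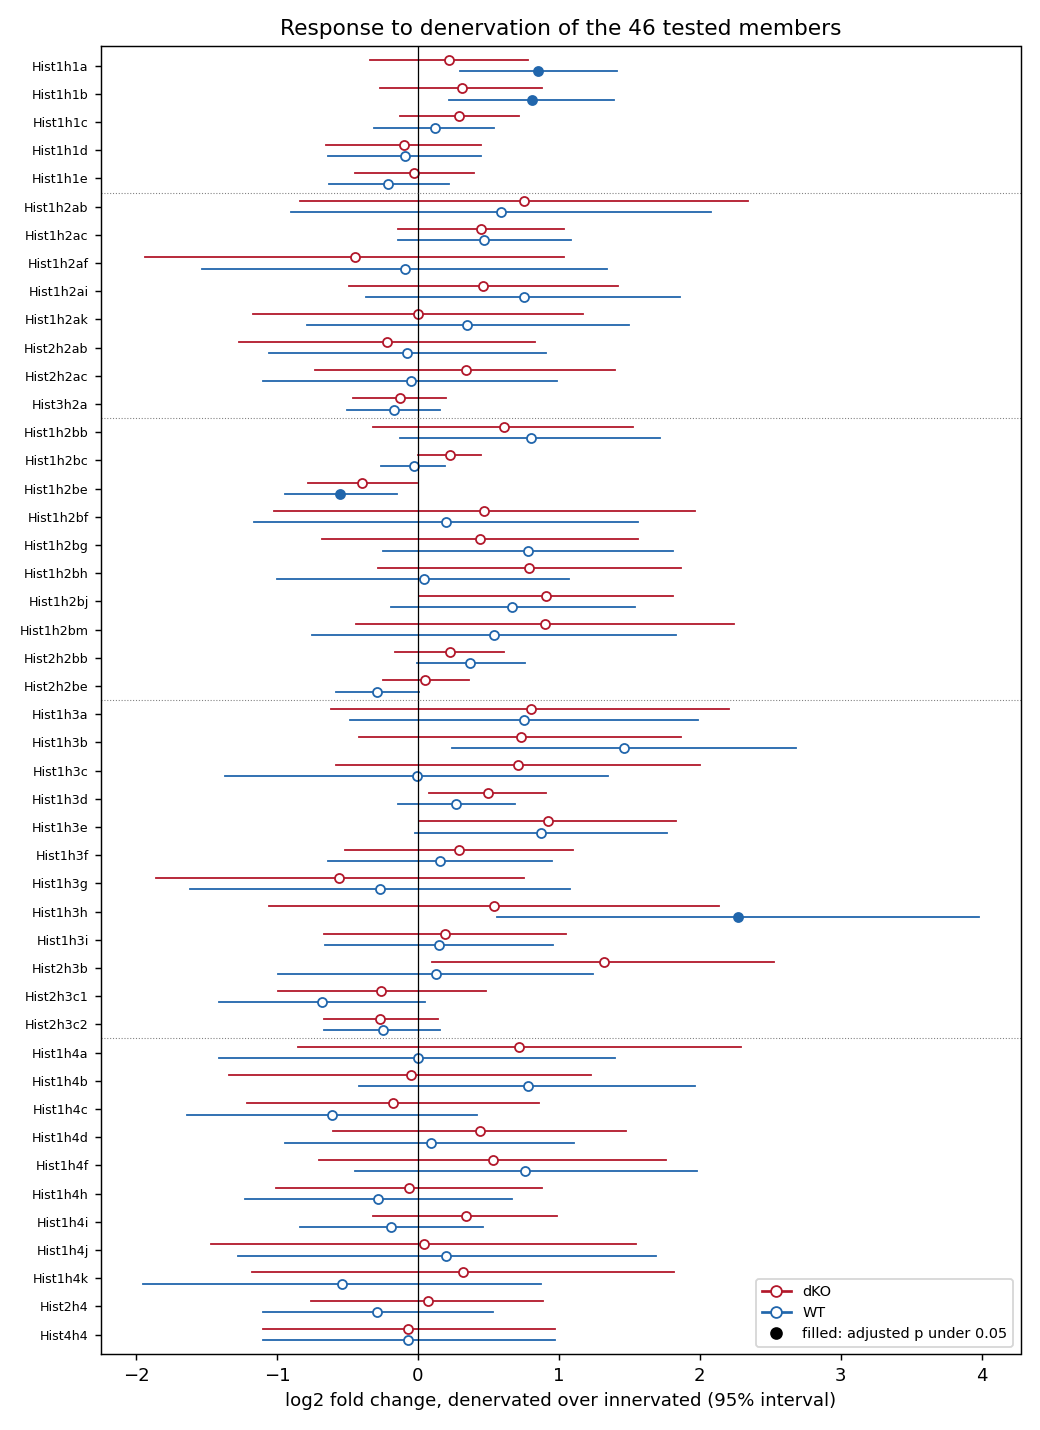
Log2 fold change, denervated over innervated, with its 95% interval for each of the 46 tested members, by class from H1 (top) to H4 (bottom), in dKO (red, upper line of a pair) and WT muscle (blue, lower line). Filled points mark adjusted p under 0.05 by edgeR: Hist1h1a, Hist1h1b, Hist1h3h and Hist1h2be in WT muscle and none in dKO muscle.

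Among the linker histones, 2 members of low level rose in WT muscle while the abundant ones did not pass the test. Hist1h1a, which encodes H1.1, had 0.702, 1.41 and 1.1 CPM in dKO denervated against 0.736, 0.997 and 1.03 CPM in dKO innervated muscle, which overlap. In WT it had 1.52, 1.45 and 1.52 CPM in denervated against 0.589, 0.989 and 0.927 CPM in innervated muscle, which do not. Its log2 fold change was 0.22 ± 0.26 (SE) in dKO muscle (edgeR adjusted p = 0.536) and 0.85 ± 0.26 in WT muscle (edgeR adjusted p = 0.0159). Hist1h1b, the gene of the printed H1 promoter, encodes H1.5. It had 0.813, 1.26 and 1.35 CPM in dKO denervated against 0.556, 1.27 and 0.947 CPM in dKO innervated muscle, again with overlap. In WT the values were 1.18, 1.18 and 1.32 CPM in denervated against 0.669, 0.641 and 0.786 CPM in innervated muscle, without overlap. The log2 fold change was 0.31 ± 0.27 in dKO muscle (edgeR adjusted p = 0.393) and 0.81 ± 0.27 in WT muscle (edgeR adjusted p = 0.0277). Both genes share none of their 50-base words with another gene, and replicate 2 of WT denervated was close to its group in both. Leaving out replicate 1 of WT innervated took the adjusted p above 0.05 for both, and leaving out WT innervated replicate 2 or WT denervated replicate 3 did so for Hist1h1b. The highest adjusted p over 20 alternatives was 0.0751 for Hist1h1a and 0.0833 for Hist1h1b.

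Hist1h1c had 131, 177 and 145 CPM in dKO denervated against 94.1, 144 and 132 CPM in dKO innervated muscle, and 180, 108 and 160 CPM in WT denervated against 152, 115 and 147 CPM in WT innervated muscle. Both pairs of groups overlap. The log2 fold change was 0.29 ± 0.20 in dKO muscle (edgeR adjusted p = 0.258), which passed with the replicate block (0.30, adjusted p = 0.0138), and 0.12 ± 0.20 in WT muscle (adjusted p = 0.673). Without the 2 libraries that stood apart the dKO value was 0.13 (adjusted p = 0.507). Hist1h1e, which encodes H1.4, had 13.9, 19.9 and 17.7 CPM in dKO denervated against 12.1, 21.4 and 18.9 CPM in dKO innervated muscle, and 19.9, 13.9 and 19.5 CPM in WT denervated against 19.2, 22.0 and 20.4 CPM in WT innervated muscle, with overlap in both genotypes.

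No H2A member of the 8 tested passed in either genotype. Hist3h2a, the leading one, had 4.08, 4.26 and 3.96 CPM in dKO denervated against 4.09, 5.28 and 4.06 CPM in dKO innervated muscle, and 4.1, 3.32 and 3.57 CPM in WT denervated against 4.84, 3.37 and 4.1 CPM in WT innervated muscle. Its log2 fold change was -0.13 (95% interval -0.46 to 0.20) in dKO and -0.17 (-0.50 to 0.16) in WT muscle. Hist2h2ac, whose stem-loop and promoter are printed above, was more variable. It had 0.978, 1.74 and 1.4 CPM in dKO denervated against 0.511, 1.28 and 1.48 CPM in dKO innervated muscle, and 2.36, 0.452 and 1.22 CPM in WT denervated against 1.58, 1.56 and 1.01 CPM in WT innervated muscle. The 95% interval of its log2 fold change was -0.73 to 1.40 in dKO and -1.10 to 0.99 in WT muscle. With the replicate block Hist1h2ac passed in WT muscle (0.49, adjusted p = 0.0447).

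Of 10 tested H2B members, Hist1h2be fell in WT muscle. It had 1.94, 2.44 and 2.21 CPM in dKO denervated against 2.42, 3.26 and 3.00 CPM in dKO innervated muscle, where 1 denervated library lay above the lowest innervated one. In WT it had 1.65, 1.05 and 1.36 CPM in denervated against 2.06, 1.76 and 2.09 CPM in innervated muscle, without overlap. The log2 fold change was -0.40 ± 0.18 in dKO muscle (edgeR adjusted p = 0.0919) and -0.55 ± 0.18 in WT muscle (edgeR adjusted p = 0.0274). With the replicate block both passed (-0.39, adjusted p = 0.0317 in dKO and -0.55, adjusted p = 0.00738 in WT muscle), while without the 2 libraries that stood apart the call was in dKO (-0.51, adjusted p = 0.0231) and not in WT muscle (-0.39, adjusted p = 0.0822). In the M21 annotation a transcript of Hist1h2be overlaps exons of Hist1h1e and Gm11398 on the same strand. Hist1h2bc, the most abundant H2B gene, had 22.0, 25.7 and 24.4 CPM in dKO denervated against 18.7, 22.8 and 20.1 CPM in dKO innervated muscle, and 23.3, 19.8 and 22.3 CPM in WT denervated against 21.9, 20.1 and 24.7 CPM in WT innervated muscle. It was among the most tightly measured members, with log2 fold changes of 0.23 ± 0.11 in dKO muscle (edgeR adjusted p = 0.102, and 0.0230 with the replicate block) and -0.03 ± 0.10 in WT muscle (edgeR adjusted p = 0.837). Hist2h2bb, whose ID is named Gm42743 in M21, had 0.23 ± 0.18 in dKO and 0.37 ± 0.18 in WT muscle, and the WT value passed with the replicate block (0.39, adjusted p = 0.0494).

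H3 had the largest called change. Hist1h3h rose in WT muscle by a log2 fold change of 2.27 ± 0.79 (edgeR adjusted p = 0.0325). Its counts were 5, 14 and 6 in dKO denervated, 3, 9 and 3 in dKO innervated, 26, 5 and 13 in WT denervated and 4, 1 and 2 in WT innervated muscle. On the CPM scale the WT groups overlap, and 93.9% of its 50-base words occur in another gene, so its reads cannot be placed with certainty. The call was lost on leaving out any 1 of the 3 WT innervated libraries or replicate 1 or 3 of WT denervated, with an adjusted p of up to 0.163, and the log2 fold change was 1.49 without replicate 1 of WT denervated and 2.75 without replicate 2. Hist1h3e, the H3 gene of highest level, had 1.57, 2.89 and 1.88 CPM in dKO denervated against 0.541, 1.43 and 1.38 CPM in dKO innervated muscle, without overlap, and 3.24, 0.988 and 2.58 CPM in WT denervated against 1.46, 1.04 and 1.18 CPM in WT innervated muscle, with 1 denervated library below all innervated ones. Its log2 fold change was 0.92 ± 0.42 in dKO muscle (edgeR adjusted p = 0.0967) and 0.87 ± 0.41 in WT muscle (edgeR adjusted p = 0.108), and with the replicate block it passed in both (0.96, adjusted p = 0.0116, and 0.79, adjusted p = 0.0264). Without the 2 libraries that stood apart it was 0.59 in dKO (adjusted p = 0.0891) and 1.24 in WT muscle (adjusted p = 0.00194). Hist2h3c1 had 0.964, 1.81 and 1.35 CPM in dKO denervated against 0.871, 2.08 and 1.98 CPM in dKO innervated muscle, and 1.5, 0.725 and 1.49 CPM in WT denervated against 2.02, 1.76 and 2.12 CPM in WT innervated muscle. Only the WT groups do not overlap, and the decrease there passed with the replicate block (-0.71, adjusted p = 0.0128), while without the block it was -0.68 ± 0.34 (edgeR adjusted p = 0.125). The ID counted as Hist2h3c1 is named Gm20634 in M21, where it spans Hist2h3c1 and Hist2h2aa1. In dKO muscle 2 more H3 members rose with the replicate block, Hist1h3d (0.48, adjusted p = 0.0210) and Hist2h3b (1.37, adjusted p = 0.0331), and in WT muscle Hist1h3b did (1.51, adjusted p = 0.0357). Without the block their log2 fold changes were 0.50 ± 0.19, 1.32 ± 0.56 and 1.46 ± 0.57 (edgeR adjusted p = 0.0528, 0.0774 and 0.0513). Other alternatives called them too: of 20 in all, the block included, Hist1h3d passed in 6, Hist2h3b in 8 and Hist1h3b in 9. Shared sequence limits most of these H3 members as well. The share of 50-base words found in another gene was 73.4% for Hist1h3e, 77.6% for Hist2h3c1, 79.7% for Hist2h3b and 60.4% for Hist1h3b, and 24.8% for Hist1h3d. The value for Hist2h3c1 is that of Gm20634. It also counts words shared with the M21 entries Hist2h3c1 and Hist2h2aa1 at the same place, so it is not comparable with the others.

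None of the 11 tested H4 members passed in either genotype. Hist1h4c had 8.43, 13.4 and 7.44 CPM in dKO denervated against 5.71, 15.4 and 11.9 CPM in dKO innervated muscle, and 13.8, 2.46 and 11.4 CPM in WT denervated against 15.7, 13.4 and 12.9 CPM in WT innervated muscle. Hist1h4d had 8.76, 13.7 and 7.18 CPM in dKO denervated against 3.76, 10.4 and 7.68 CPM in dKO innervated muscle, and 17.7, 3.26 and 12.7 CPM in WT denervated against 11.8, 11.1 and 8.77 CPM in WT innervated muscle. In both genes replicate 1 of dKO innervated and replicate 2 of WT denervated, which stood apart, were the lowest of their groups. The standard errors of their log2 fold changes were 0.47 to 0.48, and the 95% intervals in WT muscle were -1.64 to 0.42 for Hist1h4c and -0.94 to 1.11 for Hist1h4d. Without the 2 libraries, Hist1h4b (1.23, adjusted p = 0.0239) and Hist1h4f (1.21, adjusted p = 0.0414) were called higher in WT muscle. Both calls rest on leaving out a WT denervated library that was noted for low values of the members.

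Between genotypes 1 member passed the test in innervated muscle and none in denervated muscle. It was Hist2h2be, an H2B gene of cluster 2. It had 3.28, 3.6 and 3.46 CPM in dKO innervated against 6.66, 6.54 and 6.68 CPM in WT innervated muscle. The 3 dKO values lie far below the 3 WT values, with little spread in either group. The log2 fold change, dKO over WT, was -0.94 ± 0.14 (95% interval -1.25 to -0.64, edgeR adjusted p = 0.00913), and it stayed below an adjusted p of 0.05 in all 20 alternatives, with values of -0.99 to -0.91. It was the only one of 46 members to pass, where 0.459% of all tested genes did (0.314% lower and 0.145% higher in dKO). At an unadjusted p under 0.05 there were 1 higher and 1 lower, against 10.5% of all tested genes in either direction. None of its 50-base words occurs in another gene, and its level in replicate 1 of dKO innervated was close to the other libraries of the group. In denervated muscle Hist2h2be had 2.81, 3.77 and 4.15 CPM in dKO against 5.45, 6.01 and 4.83 CPM in WT, again without overlap. The log2 fold change there was -0.60 ± 0.14 and did not pass (edgeR adjusted p = 0.0943), where 0.36% of all tested genes did (0.285% lower and 0.0756% higher in dKO). Of 20 alternatives, 2 called it lower in denervated muscle: DESeq2 and the fit without a filter on low counts. These called more of the 17201 genes there, 289 by DESeq2 and 250 without a filter, against 62 by edgeR with the filter.

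Hist1h2be was on the other side, with higher values in dKO in both states and no call by edgeR. It had 2.42, 3.26 and 3.00 CPM in dKO innervated against 2.06, 1.76 and 2.09 CPM in WT innervated muscle, and 1.94, 2.44 and 2.21 CPM in dKO denervated against 1.65, 1.05 and 1.36 CPM in WT denervated muscle. In neither state did the groups overlap. The log2 fold change was 0.55 ± 0.18 in innervated (edgeR adjusted p = 0.281) and 0.70 ± 0.18 in denervated muscle (edgeR adjusted p = 0.137), so neither passed over all genes. Of 20 alternatives, 1 called it higher in denervated muscle: DESeq2, which called 289 of all tested genes there against 62 by edgeR. Among the 46 tested members, Hist1h2be and Hist2h2be were in innervated muscle the 2 whose genotype groups did not overlap, where 8.59% of all tested genes were higher and 8.48% lower without overlap. In denervated muscle 2 tested members were higher without overlap (Hist1h2be and Hist2h3c2) and 2 lower (Hist2h2be and Hist1h1a), against 6.42% and 7.55% of all tested genes. No member passed in denervated muscle, where 1 was higher and 1 lower at an unadjusted p under 0.05 by edgeR, against 9.78% of all tested genes in either direction.

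**Figure D4:**
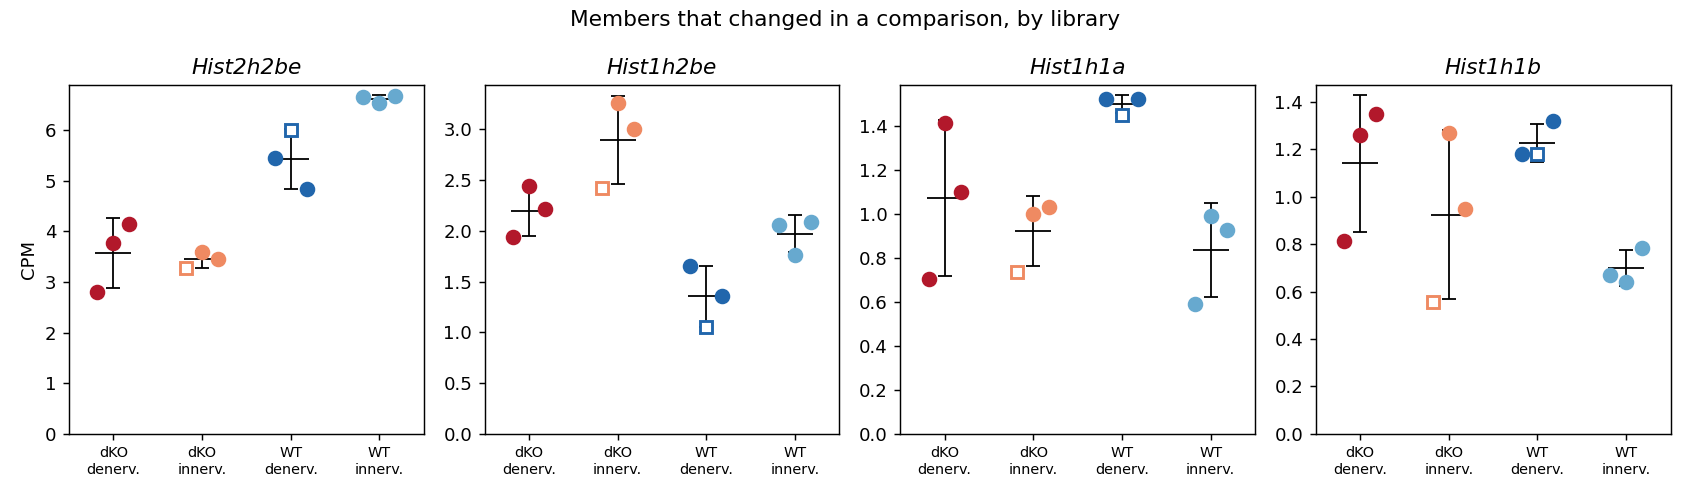
CPM (y axis, from 0) of Hist2h2be, Hist1h2be, Hist1h1a and Hist1h1b in each library, with the mean and SD of 3 libraries in black and open squares for replicate 1 of dKO innervated and replicate 2 of WT denervated. Hist2h2be lies between 2.81 and 4.15 in all 6 dKO libraries and between 4.83 and 6.68 in all 6 WT libraries, whereas Hist1h1a and Hist1h1b separate WT denervated from WT innervated muscle.

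The test of the difference between the genotypes' responses to denervation called none of the 46 members and 0 of 17201 genes by edgeR, and none by DESeq2. At an unadjusted p under 0.05 it held 0 members and 2.17% of all tested genes. The rises of Hist1h1a and Hist1h1b in WT muscle are therefore not shown to differ from those in dKO muscle (difference, dKO minus WT, -0.63 ± 0.36 and -0.50 ± 0.38 on the log2 scale, edgeR adjusted p = 1.0 for both). The smallest unadjusted p values among the members were those of Hist1h2bc (0.26 ± 0.15) and Hist2h2be (0.34 ± 0.20), 0.105 for both by edgeR. The median difference over members was 0.09, and without the 2 libraries that stood apart it was -0.43 over 48 members, so its sign depended on them.

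Among the other genes of the pathway, many rose after denervation and few fell. Of 10 transcription genes around NPAT, 4 rose in dKO and 5 in WT muscle after denervation, and none fell. Ccne1 and Cdk2, which encode cyclin E and its kinase that phosphorylates NPAT, rose by log2 fold changes of 1.18 ± 0.39 and 0.84 ± 0.13 in dKO muscle and 2.24 ± 0.40 and 1.17 ± 0.13 in WT muscle (edgeR adjusted p = 0.0281, 0.000147, 0.000522 and 9.58e-06). Npat itself had 0.07 ± 0.11 in dKO (adjusted p = 0.632) and 0.30 ± 0.11 in WT muscle (adjusted p = 0.0454). Of 20 genes for cutting at the stem-loop, 8 rose in dKO and 11 in WT muscle and none fell, among them Snrpf, of the U7 snRNP ring (log2 fold change 0.65 in dKO and 0.67 in WT muscle), Ncbp1, of the cap-binding complex (0.58 in dKO and 0.61 in WT muscle), and Fip1l1 (0.50 in dKO and 0.59 in WT muscle). Slbp, whose product binds the stem-loop, had 8.67 ± 0.639 CPM in dKO denervated and 9.05 ± 0.293 CPM in dKO innervated muscle, and 8.41 ± 0.721 CPM in WT denervated and 9.1 ± 0.984 CPM in WT innervated muscle (SD, n = 3 each). It did not pass in either genotype.

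Of 22 gene IDs for decay of these mRNAs, 8 rose and 2 fell in dKO muscle, and 10 rose and 1 fell in WT muscle. Lsm6, of the Lsm ring that binds the oligouridylated end, had log2 fold changes of 1.14 ± 0.12 in dKO and 1.25 ± 0.12 in WT muscle, and Eri1, the exonuclease that trims the stem-loop end, 0.48 ± 0.09 in dKO and 0.86 ± 0.09 in WT muscle. Eri1 was also the gene of these lists, besides H2afv, that differed between genotypes, in innervated muscle. There it had 11.4 ± 0.389 CPM in dKO and 7.75 ± 0.715 CPM in WT muscle (log2 fold change 0.56 ± 0.09, edgeR adjusted p = 0.0158). In denervated muscle no gene of the decay list, Eri1 included, passed between genotypes. Histone chaperones and importers rose in 13 of 25 cases in dKO and 14 of 25 in WT muscle, while 2 fell in dKO and 1 in WT muscle. Mcm2 fell in both genotypes, with log2 fold changes of -0.71 ± 0.12 in dKO and -0.56 ± 0.12 in WT muscle (edgeR adjusted p = 0.000491 and 0.00249). Hat1 fell in dKO muscle (-0.35 ± 0.09, edgeR adjusted p = 0.00545). Asf1b, a chaperone of H3 and H4 in replication, had 0.637 ± 0.109 CPM in dKO denervated and 0.295 ± 0.0771 CPM in dKO innervated muscle, and 0.816 ± 0.0719 CPM in WT denervated and 0.316 ± 0.137 CPM in WT innervated muscle. Nasp, a chaperone that holds soluble H3 and H4, rose by 0.65 ± 0.10 in dKO and 0.80 ± 0.10 in WT muscle. Of 10 tested replacement variants, 1 rose and 1 fell in dKO and 1 rose and 2 fell in WT muscle. Cenpa, of centromeres, fell in both and H1f0, a linker histone of resting cells, in WT. The gene that rose was H3f3b, a gene for H3.3, with 109 ± 10.0 CPM in dKO denervated and 48.5 ± 3.46 CPM in dKO innervated muscle, and 90.6 ± 17.3 CPM in WT denervated and 49.1 ± 4.06 CPM in WT innervated muscle. These lists were chosen with earlier results of these data known, and their counts stand against the same 21.9% and 23.1% of tested genes that rose.

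Of 21 markers of cells in S phase or mitosis, 9 rose and 2 fell in dKO muscle and 13 rose and 2 fell in WT muscle. Over all tested genes 21.9% rose and 20.2% fell in dKO muscle and 23.1% rose and 21% fell in WT muscle, and the lists that follow stand against the same shares. Cdt1, which licenses replication origins, rose by 3.22 ± 0.27 in dKO and 2.63 ± 0.28 in WT muscle, and Rrm2, a subunit of ribonucleotide reductase, by 1.00 ± 0.19 in dKO and 1.42 ± 0.20 in WT muscle. Ccne1 and Mcm2 belong both to this list and to a list above, and Mcm2 is among the markers that fell in both genotypes. The summed CPM of these 21 markers was 90.5 to 102 in dKO denervated against 75.2 to 76.0 in dKO innervated muscle, and 91.9 to 97.7 in WT denervated against 64.6 to 67.6 in WT innervated muscle. Markers of other cells moved with denervation as well. The sum of 5 neutrophil markers was 23.6 to 31.6 CPM in dKO denervated against 1.53 to 1.76 CPM in dKO innervated muscle, and 11.9 to 22.0 CPM in WT denervated against 1.04 to 1.49 CPM in WT innervated muscle, and 1 of its 3 tested genes passed. That gene, S100a8, carried most of the sum, with 26.2 ± 3.48 CPM in dKO denervated and 0.128 ± 0.0399 CPM in dKO innervated muscle, and 16.3 ± 5.86 CPM in WT denervated and 0.136 ± 0.0905 CPM in WT innervated muscle (SD, n = 3 each). Csf3r and S100a9 did not pass, Retnlg had at most 7 counts in a library, and Ly6g was at 0 in every denervated library. The sum of 5 Schwann cell markers was 16.6 to 18.4 CPM in dKO denervated against 36.5 to 48.1 CPM in dKO innervated muscle, and 18.8 to 20.5 CPM in WT denervated against 41.7 to 45.8 CPM in WT innervated muscle. Of the remaining lists, 3 of 5 fibroblast and 3 of 5 endothelial markers fell in both genotypes, 1 of 8 macrophage markers rose and 1 fell in both, and no erythroid marker and not the 1 tested lymphocyte marker passed. Of 6 muscle fibre markers 2 fell in dKO and 3 in WT muscle, and none rose. Of 6 satellite cell markers 1 rose and 1 fell in dKO muscle and 2 rose and 1 fell in WT muscle. Their part in the values of the histone genes was not tested.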

How the data were processed

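RNA was measured in 12 libraries of mouse tibialis anterior, and the series text calls the 3 libraries of a group biological replicates. Per the labels' protocols, ribosomal RNA was removed from total RNA and the libraries kept the strand. HTSeq 0.6.1, Bowtie, TopHat2 2.0.14, bcl2fastq and the build mm9 are named in the submitters' processing notes. How reads with several positions were treated sets the counts of near-identical histone genes, and this is not given in the sources used here, nor is the annotation release. Every test rests on the raw read counts of the deposited table, 1 column per library. Its other columns are a normalized signal and, per the file headers, the same signal divided by the authors by gene length in kb, which was used for levels between genes.

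Counts were filtered by group, which kept 17201 genes, scaled by TMM and fitted as 4 group means in 1 model with 8 residual degrees of freedom in edgeR 4.0.16 (limma 3.58.1, R 4.3.3). The quasi-likelihood test of edgeR gave the p-values, adjusted after Benjamini and Hochberg over these 17201 genes. The F statistic also gave the standard errors and 95% intervals, and the scripts were tested on simulated data. A floor of 3 counts corresponds to 0.0315 to 0.0549 CPM per library, for counting error only. Stem-loops, overlaps, GC content and shared 50-base words came from GENCODE M21 on GRCm38, another build than that of the counts. Of the members, 56 matched by ID and 10 by symbol. GC values rest on M21 transcripts, which for some members are longer than the deposited length.

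Equal replicate numbers were checked as legs of 1 animal on deviations from group means over 12706 genes: same-number correlations were 0.283, 0.508 and 0.197 in dKO and 0.459, 0.271 and 0.279 in WT, all above 0.1, so the numbers were taken as pairs. The labels do not state that equal replicate numbers are legs of 1 animal, and these correlations cannot tell a shared animal from shared handling. Denervation and interaction were refitted with these pairs as a block (4 residual degrees of freedom), and genotype contrasts with the replicate number as an additive term. Other alternatives were RLE scaling, DESeq2 1.42.0, no filter, only the groups compared, removal of each library's GC trend, and leaving out libraries.

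Members shown by library are, per class, up to 3 called after denervation and the 2 of highest CPM, and members called between genotypes or, with none, the 2 of smallest p. Hist1h3d, Hist2h3b, Hist1h3b, Hist1h2ac and Hist2h2bb are named for a call under the block, and Hist1h4b and Hist1h4f for one without 2 libraries, after their values were seen. Up to 4 called genes were named per pathway list. The members and lists were chosen with earlier results of these data known. Protein sequences were not used here.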

Additional observations from a re-analysis of the deposited data

How the results depend on the processing

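Over the alternatives, 2 of which change 2 things together (the block with the GC trend, and both libraries left out), 590 values of named members kept their direction and their side of the threshold, 25 passed it, 15 no longer did and 26 changed sign. The lower level of Hist2h2be in dKO innervated muscle held in all 20 alternatives. The counts of called members depended on the setting, and the cause was not tested. After denervation in WT muscle, with 3 members higher and 1 lower by edgeR, the counts were 6 and 2 without a filter (Hist1h1t, at 0 to 5 counts, among them), 7 and 2 with the replicate block, 8 and 3 with the block and the GC trend removed, 6 and 2 with the GC trend removed, and 11 and 0 without both libraries that stood apart. The count lower was 0 with only the groups compared, and leaving out 1 library gave 0 to 9 higher and 0 to 1 lower. Among all genes, 7576 passed in WT muscle with the settings of the text. The number was 7164 without a filter, 8498 with the block, 8907 with the block and the GC trend removed, and 7803 with the GC trend removed. Without both libraries it was 7247. After denervation in dKO muscle, with 0 higher and 0 lower by edgeR, the counts higher were 1 with RLE, 2 without a filter, 1 with only the groups compared, 5 with the replicate block, 6 with the block and the GC trend removed, 3 with the GC trend removed and 1 with DESeq2. The counts lower were 1 with the replicate block, 1 with the block and the GC trend removed and 1 without both libraries, and leaving out 1 library gave 0 to 3 higher and 0 lower. Among all genes, 7233 passed in dKO muscle with the settings of the text. The number was 6835 without a filter, 8186 with the block, 8754 with the block and the GC trend removed, and 7683 with the GC trend removed. Without both libraries it was 7042. In dKO against WT denervated muscle, with 0 called by edgeR, DESeq2 called 1 higher and 1 lower, and the fit without a filter 1 lower. Among all genes, 62 passed there by edgeR, 289 by DESeq2 and 250 without a filter. The replicate block changed no call between genotypes or in the interaction. Values that changed sign were uncalled. In WT muscle they were Hist1h4d with the replicate block (-0.14) and with the GC trend removed as well (-0.17), and Hist2h2ac with the block and the GC trend removed (0.05), with the GC trend removed (0.12) and without both libraries (0.37). Hist1h2bc changed sign in WT muscle without both libraries (0.03), and Hist2h2ac in dKO muscle (-0.01). Leaving out 1 library gave -0.04 to 0.31 for Hist1h1c, -0.1 to 0.05 for Hist1h2bc, -0.41 to 0.54 for Hist1h4d and -0.74 to 0.38 for Hist2h2ac in WT muscle. In dKO muscle it gave -0.01 to 0.46 for Hist1h1a, -0.23 to 0.15 for Hist1h1e, -0.06 to 1.21 for Hist1h3h, -0.49 to 0.15 for Hist1h4c, -0.01 to 0.61 for Hist2h2ac, -0.04 to 0.22 for Hist2h2be and -0.19 to 0.01 for Hist3h2a. Of the 46 tested members, 25 had a mean under 1 CPM, and whether depth limited their calls was not tested. The test of the interaction could not be run with only the groups compared, where Hist1h3h had too few counts in WT and in dKO muscle to be tested.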
